A study of Mus musculus with 6 samples.

Results

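The genes described here are 9 imprinted genes tied to postnatal growth, namely Dlk1, H19, Meg3, Peg3, Plagl1, Cdkn1c, Grb10, Mest and Ndn. They were chosen by name, as rows of the deposited gene table, and 7 of the 9 were among its 15238 genes. H19 and Meg3 were not measured here: none of the 7 transcripts annotated for H19 and none of the 11 annotated for Meg3 was in the transcript index used for counting, which left these long non-coding RNAs with no value, not with a value of 0. The RNA came in bulk from intestinal fibroblasts of Balb/c pups at postnatal day 9, sorted as positive for podoplanin and negative for CD45, EpCAM and CD31, which mark leukocytes, epithelium and endothelium. The 3 DdblGata1 libraries carry the replicate numbers 4, 9 and 10. DdblGata1 pups have a deletion in the promoter of Gata1, a transcription factor of blood cells, in every cell of the body, and lack eosinophils. The 3 WT libraries carry the numbers 1, 3 and 4. No treatment is labelled, and the shared preparation was removal of epithelium with 10 mM EDTA for 30 min followed by repeated digestion of 20 min each. The series title asks about eosinophils and the smooth muscle cells that form in villi after birth. The labels do not say that the libraries came from separate animals, so all p-values measure the spread between these libraries only. In bulk RNA, a change in the number of cells of a type and a change in RNA per cell cannot be told apart.

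An imprinted gene is transcribed mainly from the copy inherited from 1 parent, because DNA methylation laid down in the egg or sperm marks the parental copies differently. Many imprinted genes regulate growth before and after birth, and several fall in level across organs as postnatal growth slows. Genes active on the paternal copy often promote growth and those on the maternal copy often restrain it, although this rule has exceptions. Among the 9 genes, Dlk1, Mest, Peg3, Plagl1 and Ndn are expressed from the paternal copy in mice. H19, Meg3 and Cdkn1c are expressed from the maternal copy, as is Grb10 outside neurons. Balb/c is an inbred strain, so the parental copy behind a transcript could not be read from these libraries.

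Table totals lay between 28110454 and 31210800 estimated counts per library. Levels are given below as CPM, counts scaled to a common library total, after scaling between libraries by the trimmed mean of M-values (TMM). Markers of the labelled cell type were present and CD45 was near 0: the fibroblast gene Pdgfra lay at 779, 922 and 1080 CPM in DdblGata1 libraries and at 755, 1013 and 688 CPM in WT libraries, and Ptprc, which encodes CD45, at 0.697 to 0.969 CPM and 0.720 to 4.06 CPM. Pdpn, which encodes podoplanin, had 53.9, 41.5 and 50.0 CPM in DdblGata1 replicates 4, 9 and 10, against 25.1, 42.0 and 41.8 CPM in WT replicates 1, 3 and 4. WT replicate 1 was thus the lowest library for this gene of the sort, and it also stood apart in its epithelial markers. The sum of Epcam, Vil1, Cdh1 and Krt20 was 59.8, 70.7 and 49.7 CPM in DdblGata1 replicates 4, 9 and 10, against 295, 46.6 and 39.6 CPM in WT replicates 1, 3 and 4. Because that library also had the lowest value of 6 of the 7 measured imprinted genes, fold changes without it are given below beside those with all libraries.

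All 7 measured genes had a higher value in DdblGata1 than in WT fibroblasts, against 49.3% of all genes. These genes and the gene lists below were chosen with earlier results of these data known. Their counts and medians beside those of all genes are therefore descriptions and not tests. The log2 fold changes, DdblGata1 minus WT, ran from 0.34 in Plagl1 and Grb10 to 1.21 in Mest, with a median of 0.61, and the median over all 15238 genes was -0.01. In 5 of the 7 genes, namely Peg3, Cdkn1c, Grb10, Mest and Ndn, every DdblGata1 library lay above every WT library, as did 8.98% of all genes. None of the 7 passed the quasi-likelihood test of edgeR at an adjusted p of 0.05, which called 0 genes of the whole table (0%). At an unadjusted p under 0.05 edgeR had 4 of the 7 higher (Mest, Cdkn1c, Ndn and Peg3) and 0 lower, where 10.3% of all genes had such a p, 6.03% higher and 4.23% lower. DESeq2 called 1 of the 7 higher, Mest, and it called 1.51% of the genes it tested, with 0.998% of the genes tested called higher.

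**Figure D1:**
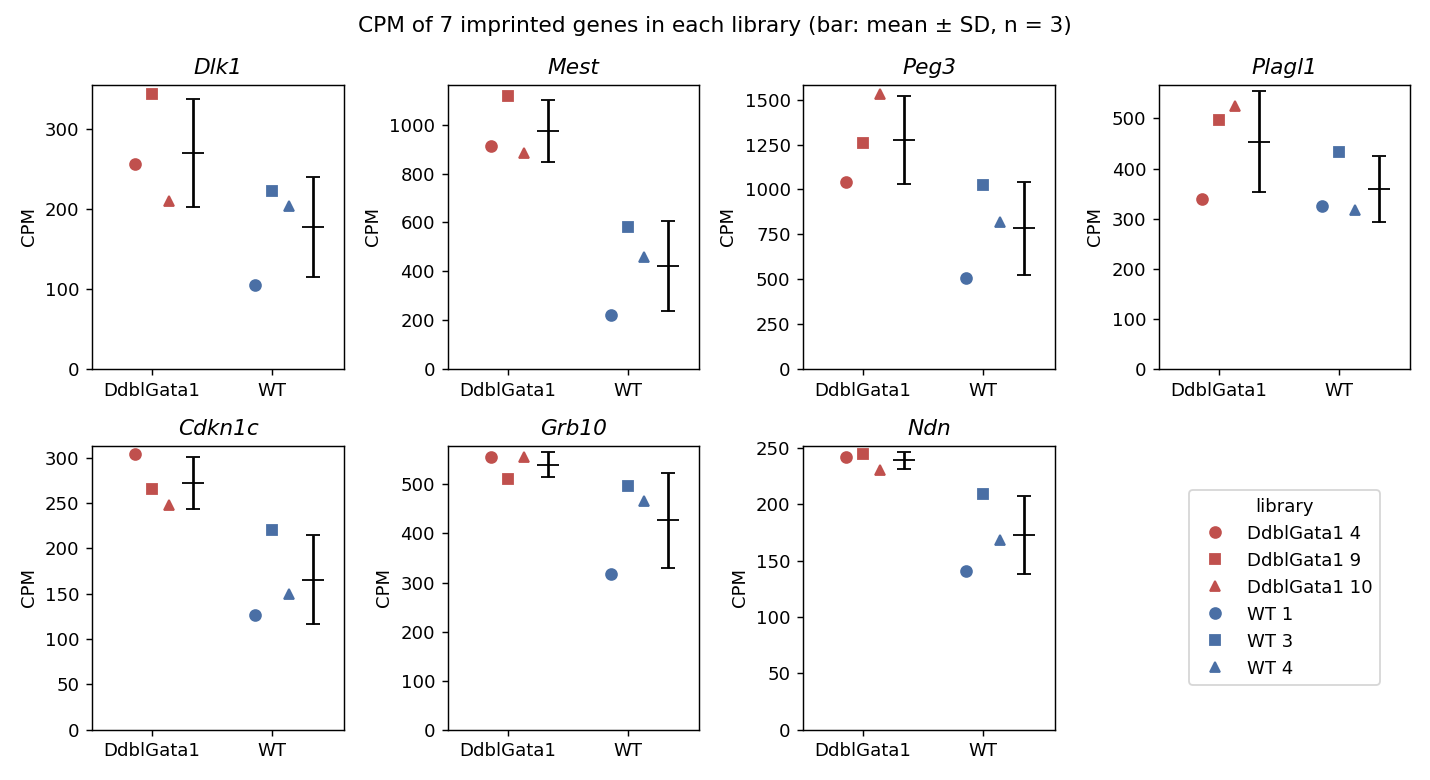
CPM (linear axes from 0) of the 7 measured genes in each library, DdblGata1 in red and WT in blue, with the mean and SD of the 3 libraries of a group beside the points. In Mest, Peg3, Cdkn1c, Grb10 and Ndn all red points lie above all blue points, and in Dlk1 and Plagl1 the groups overlap.

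Mest, also called Peg1, encodes a membrane protein of the alpha/beta-hydrolase fold family and is known for its part in fetal growth and in the expansion of fat tissue. It had the widest difference of the 7 genes. Mest had 914, 1118 and 886 CPM in DdblGata1 replicates 4, 9 and 10, against 219, 581 and 459 CPM in WT replicates 1, 3 and 4. The groups did not overlap, and the lowest DdblGata1 library lay well above the highest WT library. The means were 973 ± 127 CPM in DdblGata1 and 420 ± 184 CPM in WT libraries (SD, n = 3 each), and the log2 fold change of 1.21 ± 0.33 (SE) was larger than that of 98.4% of all genes. The edgeR p was 0.00605 and its adjusted p was 0.384, whereas DESeq2 called Mest higher with an adjusted p of 0.0240. Without WT replicate 1 the log2 fold change was 0.88, with an edgeR adjusted p of 0.579 and a DESeq2 adjusted p of 0.00628. DESeq2 made no call of Mest without DdblGata1 replicate 9 (adjusted p 0.205), without DdblGata1 replicate 10 (adjusted p 0.157) or without WT replicate 4 (adjusted p 0.0717).

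Mest (ENSMUSG00000051855) lies on the + strand of GRCm38 chromosome 6 from 30723547 to 30748465, and its transcripts begin at more than 1 promoter. Mest-210 and Mest-211 were the main transcripts here, and their starts are 4544 bases apart. The 300-base windows around these starts, most of each lying upstream of its start, are shown because the start sites distinguish the transcripts whose levels follow. They are RefSeq sequences on GRCm38.p6, chr6:30733256-30733555 for the upstream and chr6:30737800-30738099 for the downstream start, both on the + strand. Capitals mark TGCCGC or its reverse complement GCGGCA, the 6-base word that the zinc finger protein ZFP57 is known to bind when methylated.
Mest upstream start: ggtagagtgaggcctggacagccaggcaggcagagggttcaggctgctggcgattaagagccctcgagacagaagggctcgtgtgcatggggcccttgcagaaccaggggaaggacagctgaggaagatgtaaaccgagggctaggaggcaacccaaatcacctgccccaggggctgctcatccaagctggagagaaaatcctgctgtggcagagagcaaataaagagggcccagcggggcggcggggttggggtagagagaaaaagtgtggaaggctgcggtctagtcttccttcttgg
Mest downstream start: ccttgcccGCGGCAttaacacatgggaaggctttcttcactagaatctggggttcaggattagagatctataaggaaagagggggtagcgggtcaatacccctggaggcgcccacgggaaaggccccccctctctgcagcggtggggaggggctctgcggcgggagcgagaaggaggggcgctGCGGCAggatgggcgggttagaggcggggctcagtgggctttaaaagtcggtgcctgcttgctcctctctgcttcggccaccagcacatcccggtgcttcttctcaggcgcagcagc

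The downstream window held the word 2 times and the upstream window 0 times. The downstream window also held 17 CpG dinucleotides, against 8 in the upstream window and a median of 7 over the 32851 promoter windows of the RefSeq table. The 6-base word, on either strand, occurred in 11.6% of those windows. Of the 11 windows listed for 7 of the 9 genes (all but H19 and Cdkn1c), 5 held it, and 2 of these 5 are Mest windows shifted by a few bases from each other. A match describes the letters of a window and is not a measurement of binding or methylation.

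Transcripts from both starts of Mest were more abundant by value in DdblGata1 libraries. Levels of transcripts are given per length and relative to all transcripts of a library, as TPM, from the deposited kallisto estimates. Mest-210, from the upstream start, had 306, 528 and 452 TPM in DdblGata1 replicates 4, 9 and 10, against 88.5, 152 and 186 TPM in WT replicates 1, 3 and 4. Mest-211, from the downstream start, had 415, 305 and 221 TPM in the DdblGata1 libraries, against 74.2, 259 and 149 TPM in the WT libraries. Mest-210 was thus separate between the groups and Mest-211 overlapped. As shares of the gene, Mest-210 took 41.3% to 66.03% in DdblGata1 and 36.2% to 53.8% in WT libraries, and Mest-211 took 32.4% to 56.0% and 41.5% to 61.6%. The shares overlapped, and the test of transcript usage with diffSpliceDGE gave Mest an unadjusted p of 0.756. Both transcripts share most of their sequence, so the split between them rests on reads over their first exons.

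**Figure D2:**
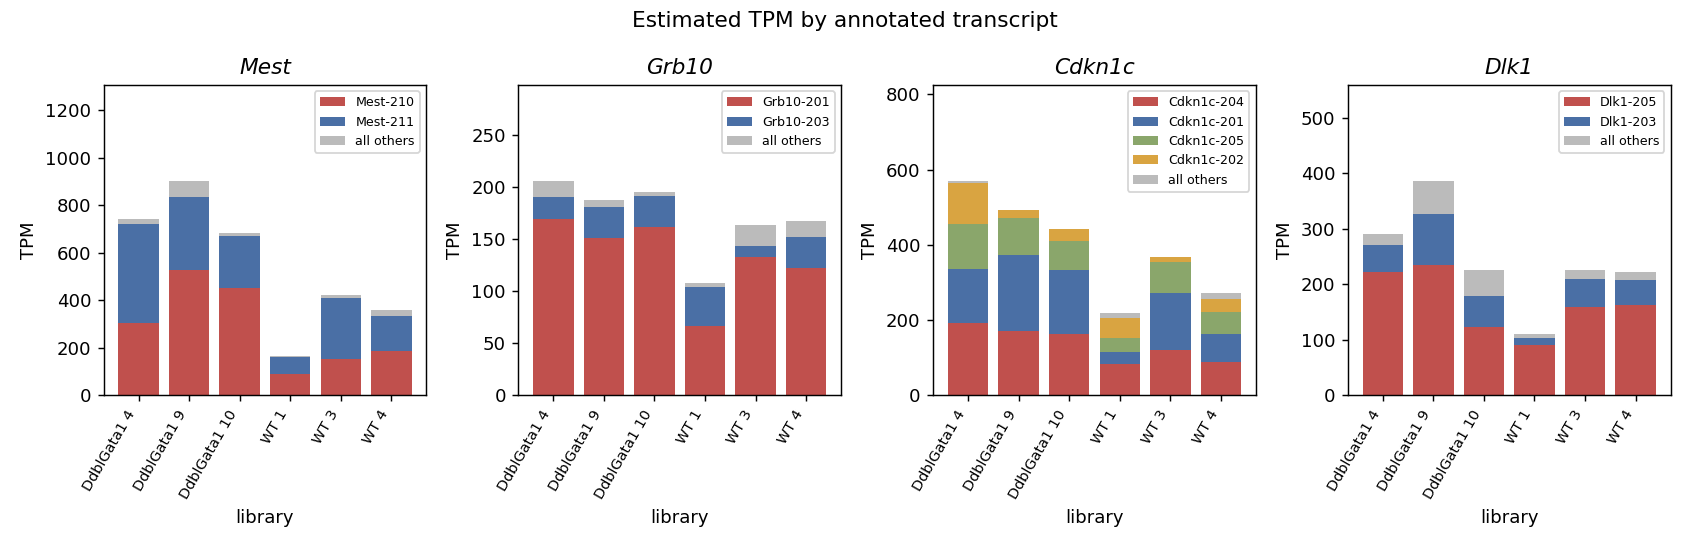
Estimated TPM of annotated transcripts of Mest, Grb10, Cdkn1c and Dlk1 in each library, stacked so that a bar's height is the gene's TPM, with DdblGata1 libraries left of WT libraries. Grb10-201 takes most of Grb10 in all 6 libraries, while the split of Mest between Mest-210 and Mest-211 varies within both groups.

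Dlk1 encodes a transmembrane protein related to Notch ligands that is known to hold preadipocytes and other progenitors in an undifferentiated state. Dlk1 had 257, 344 and 210.7 CPM in DdblGata1 replicates 4, 9 and 10, against 106, 223 and 204 CPM in WT replicates 1, 3 and 4. The groups overlapped, since WT replicate 3 lay above DdblGata1 replicate 10. The means were 271 ± 67.6 CPM in DdblGata1 and 178 ± 63.1 CPM in WT libraries (SD, n = 3 each), with a log2 fold change of 0.61 ± 0.30 (SE) and an edgeR adjusted p of 0.515 (0.0763 unadjusted). Without WT replicate 1 it was 0.32. Dlk1 (ENSMUSG00000040856) lies on chromosome 12 from 109452823 to 109463336 on the + strand of GRCm38, in the domain that also holds Meg3. Its other measured paternal genes were scarce: Rtl1, a retrotransposon-derived gene of placenta and muscle, averaged 0.963 ± 0.485 CPM in DdblGata1 and 0.517 ± 0.239 CPM in WT libraries. Dio3, the deiodinase that inactivates thyroid hormone, averaged 0.770 ± 0.567 CPM in DdblGata1 and 1.66 ± 0.467 CPM in WT libraries, and both genes overlapped between the groups. The main transcript, Dlk1-205, made up 54.3% to 76.6% of Dlk1 in DdblGata1 and 71.0% to 82.7% in WT libraries. Its usage test had an unadjusted p of 0.774 with all libraries and 0.00420 without DdblGata1 replicate 4, where the adjusted p was 0.183.

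Peg3 encodes a zinc finger transcription factor known for its part in fetal growth and maternal care. Peg3 was the most abundant of the 7 in CPM, with 1041, 1258 and 1531 CPM in DdblGata1 replicates 4, 9 and 10, against 507, 1023 and 818 CPM in WT replicates 1, 3 and 4. The groups did not overlap, although DdblGata1 replicate 4 was only just above WT replicate 3. The log2 fold change was 0.71 ± 0.28 (SE; edgeR p 0.0334, adjusted 0.473), and it was 0.45 without WT replicate 1. Peg3 (ENSMUSG00000002265) lies on the − strand of chromosome 7 from 6703892 to 6730431. Beside it, Zim1, a zinc finger gene expressed from the maternal copy, had 491, 684 and 844 CPM in DdblGata1 libraries, against 181, 429 and 290.2 CPM in WT libraries. Zim1 was separate between the groups as well, with a log2 fold change of 1.17 ± 0.33 (edgeR p 0.00733; 0.88 without WT replicate 1), and it was the 1 gene among the other imprinted genes that DESeq2 called (adjusted p 0.0345). DESeq2 did not call it without DdblGata1 replicate 9 (adjusted p 0.182) or 10 (0.398), or without WT replicate 1 (0.115) or 4 (0.148). Usp29, a paternal gene that begins next to Peg3 on the other strand, averaged 10.7 ± 1.82 CPM in DdblGata1 and 10.6 ± 3.14 CPM in WT libraries, a log2 fold change of 0.02 whose sign turned under some scalings and with some libraries left out.

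Plagl1, also called Zac1, encodes a zinc finger transcription factor that restrains proliferation and is known in mice to regulate other imprinted genes, among them Cdkn1c and Dlk1. Plagl1 had 339, 496 and 526 CPM in DdblGata1 replicates 4, 9 and 10, against 325, 434 and 318 CPM in WT replicates 1, 3 and 4. Here DdblGata1 replicate 4 lay within the WT range, and the log2 fold change was 0.34 ± 0.22 (SE; edgeR adjusted p 0.586), or 0.24 without WT replicate 1. This was also the only one of the 7 whose lowest value was not in WT replicate 1. Plagl1 (ENSMUSG00000019817) lies on the + strand of chromosome 10 from 13060504 to 13131694. Its main transcript, Plagl1-202, held 69.5% to 73.4% of it in DdblGata1 and 65.9% to 80.8% in WT libraries.

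Ndn encodes necdin, a protein of the MAGE family that restrains proliferation in neurons and preadipocytes and lies in the Prader-Willi domain. Ndn had 242, 244 and 230.1 CPM in DdblGata1 replicates 4, 9 and 10, against 141, 209 and 169 CPM in WT replicates 1, 3 and 4. The groups did not overlap, and the DdblGata1 libraries were closer to each other than the WT libraries were. The means were 239 ± 7.67 CPM in DdblGata1 and 173 ± 34.5 CPM in WT libraries (SD, n = 3 each), with a log2 fold change of 0.47 ± 0.17 (SE; edgeR p 0.0256, adjusted 0.455), and 0.31 without WT replicate 1. Ndn (ENSMUSG00000033585) lies on the + strand of chromosome 7 from 62346569 to 62350262. An annotated non-coding gene, Gm32061, covers all 3694 bases of it on the opposite strand, and the sources used here do not say whether counting used strand. Its neighbour Magel2, a paternal gene of the same family, had 4.18, 5.10 and 4.04 CPM in DdblGata1 libraries, against 1.86, 2.97 and 2.42 CPM in WT libraries (log2 fold change 0.88 ± 0.32, edgeR p 0.0236; 0.70 without WT replicate 1). Snrpn, a splicing protein gene of that domain, was below WT in all DdblGata1 libraries, with 13.99 ± 1.43 CPM in DdblGata1 and 15.9 ± 0.881 CPM in WT libraries, a log2 fold change of -0.19 ± 0.17 (edgeR p 0.306). The gap was narrow, at 15.36 CPM in DdblGata1 replicate 9 against 15.41 CPM in WT replicate 4. By TPM, transcript levels per length, the groups of Snrpn overlapped.

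Cdkn1c encodes p57KIP2, an inhibitor of cyclin-dependent kinases that restrains growth and marks cells leaving the cell cycle. Cdkn1c had 304, 266 and 248 CPM in DdblGata1 replicates 4, 9 and 10, against 127, 220.4 and 149 CPM in WT replicates 1, 3 and 4. The groups did not overlap, and DdblGata1 replicate 4 was the highest library, unlike in Peg3 and Plagl1, where it was the lowest of its group. The means were 273 ± 28.8 CPM in DdblGata1 and 166 ± 48.8 CPM in WT libraries (SD, n = 3 each), with a log2 fold change of 0.72 ± 0.22 (SE; edgeR p 0.0109, adjusted 0.416, and DESeq2 adjusted p 0.113). Without WT replicate 1 it was 0.53. The summed level of 5 genes of cycling cells was 204, 158 and 222 CPM in DdblGata1 libraries and 210, 184 and 228 CPM in WT libraries, so the ranges overlapped. Of these 5 genes 2 were higher by value, and their median log2 fold change was -0.22. Among them 1, Birc5, was lower at an unadjusted edgeR p under 0.05, beside 4.23% of all genes. Cdkn1c (ENSMUSG00000037664) lies on the − strand of chromosome 7 from 143458339 to 143461050, and a non-coding gene on the other strand, Gm44732, overlaps 892 bases of it. The other 7 measured genes of its domain, which is controlled by the Kcnq1ot1 RNA, were mixed: 2 were higher and 5 lower by value, from -1.35 to 0.05 on the log2 scale, and none had an edgeR p under 0.05. The lowest were the scarce Ascl2 at -1.35 and Kcnq1, a potassium channel gene, at -1.14, and WT replicate 1 was the highest library for both. Kcnq1 had 3.08, 1.62 and 2.07 CPM in DdblGata1 replicates 4, 9 and 10, against 10.9, 2.62 and 1.37 CPM in WT replicates 1, 3 and 4. The log2 fold changes without that library were -0.51 for Ascl2 and 0.15 for Kcnq1, with 1 of the 7 higher and 6 lower, and without WT replicate 4 the edgeR p of Kcnq1 was 0.0332.

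Grb10 encodes an adaptor protein that binds the insulin and IGF1 receptors and dampens their signal, and mice without the maternal copy are known to overgrow. Grb10 had 556, 511 and 555 CPM in DdblGata1 replicates 4, 9 and 10, against 317, 496 and 467 CPM in WT replicates 1, 3 and 4. The groups did not overlap, but the gap between DdblGata1 replicate 9 and WT replicate 3 was narrow. The log2 fold change was 0.34 ± 0.20 (SE; edgeR adjusted p 0.552), and without WT replicate 1 it was 0.14. Grb10 (ENSMUSG00000020176) lies on the − strand of chromosome 11 from 11930508 to 12038683. Its transcripts begin at several sites, and Grb10-201 and Grb10-203, whose starts are 9430 bases apart, are compared as those of highest mean TPM. Grb10 is known to use different promoters for its maternal and paternal copies, but the copy behind either of these transcripts was not read here. The window around the start of Grb10-201, chr11:12037371-12037670 on the − strand of GRCm38.p6, is a dense run of CpG, and the window of Grb10-203, chr11:12027922-12028221 on the same strand, is not. Capitals again mark TGCCGC or GCGGCA.
Grb10-201 start: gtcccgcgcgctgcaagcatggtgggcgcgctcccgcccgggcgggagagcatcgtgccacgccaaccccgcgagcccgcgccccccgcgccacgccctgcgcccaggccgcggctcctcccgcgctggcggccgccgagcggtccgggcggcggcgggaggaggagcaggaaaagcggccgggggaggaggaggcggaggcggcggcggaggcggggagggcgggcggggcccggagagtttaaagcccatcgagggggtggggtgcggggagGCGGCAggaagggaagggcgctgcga
Grb10-203 start: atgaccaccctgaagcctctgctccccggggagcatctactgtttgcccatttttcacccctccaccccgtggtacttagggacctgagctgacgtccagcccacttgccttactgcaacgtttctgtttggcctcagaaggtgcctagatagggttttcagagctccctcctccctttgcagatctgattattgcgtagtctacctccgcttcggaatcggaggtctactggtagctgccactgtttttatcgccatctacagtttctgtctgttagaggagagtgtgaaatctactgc

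The Grb10-201 window held 45 CpG and 1 copy of the word, and the Grb10-203 window 9 CpG and 0 copies. Grb10-201 had 169, 152 and 162 TPM in DdblGata1 replicates 4, 9 and 10, against 66.7, 133 and 122 TPM in WT replicates 1, 3 and 4. Every DdblGata1 library was above every WT library. It made up 80.8% to 82.8% of Grb10 in DdblGata1 and 61.7% to 81.4% in WT libraries. Grb10-203 had 20.8, 29.7 and 29.5 TPM in DdblGata1 libraries, against 37.3, 10.0 and 29.6 TPM in WT libraries, and its share ranged from 10.1% to 15.8% and from 6.13% to 34.4%. The groups overlapped for Grb10-203, and the usage test gave Grb10 an unadjusted p of 0.822. Without WT replicate 1, where Grb10-203 had its highest share, that p was 0.00500 (adjusted 0.328).

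No change in transcript usage was called in any of the 6 genes tested. By diffSpliceDGE, 0 of the 6 passed at an adjusted p of 0.05 by either the Simes or the gene-level F test, and 0 had an unadjusted Simes p under 0.05, where 0.254% of 9447 genes passed and 1.94% had such an unadjusted p. The unadjusted p-values were 0.151 for Peg3 (0.0277 without WT replicate 3), 0.472 for Cdkn1c (0.0307 without DdblGata1 replicate 4) and 0.989 for Plagl1, and Ndn has 1 annotated transcript and could not be tested. Peg3-204, a transcript annotated with a retained intron, took 2.02% to 7.34% of Peg3 in DdblGata1 and 1.18% to 3.39% in WT libraries, and those ranges overlapped. Single libraries thus moved the unadjusted p of Dlk1, Grb10, Peg3 and Cdkn1c across 0.05, and 0 of the 6 genes passed after adjustment without any single library.

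Per length, the order of the 7 genes was nearly the same in both genotypes. In DdblGata1 libraries Mest was the most abundant at 776 ± 113 TPM (SD, n = 3), followed by Cdkn1c at 501 ± 64.4, Dlk1 at 301 ± 80.2, Peg3 at 263 ± 43.6, Plagl1 at 207 ± 42.4, Grb10 at 196 ± 9.04 and Ndn at 119 ± 6.90 TPM. In WT libraries Mest stood at 315 ± 134 TPM, Cdkn1c at 286 ± 75.4, Dlk1 at 186 ± 65.8, Plagl1 at 155 ± 22.5, Peg3 at 152 ± 48.4, Grb10 at 146 ± 33.2 and Ndn at 81.1 ± 14.5 TPM. Among neighbours in the DdblGata1 order, Dlk1 and Peg3, Peg3 and Plagl1, and Plagl1 and Grb10 overlapped over the libraries. In the WT order all neighbours overlapped except Grb10 and Ndn. Peg3 leads in CPM but not in TPM, because its transcript is long. The TPM of Cdkn1c includes a short transcript with a retained intron, Cdkn1c-204, which held 33.0% to 37.5% of it in each library.

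Across the 6 libraries the 7 genes shared a profile in part. WT replicate 1 had the lowest value in 6 of them and WT replicate 4 in 1, Plagl1. DdblGata1 replicate 9 had the highest value in 3 genes, and DdblGata1 replicates 4 and 10 in 2 each. The likeness of profiles was measured as the mean absolute difference, over the 6 libraries, of log2 CPM centred on each gene's mean. By this measure Grb10 and Ndn were closest among the 7 (0.09), followed by Cdkn1c and Ndn (0.14), and Plagl1 and Mest were farthest apart (0.50). Over the whole table, the profile closest to that of Mest was Col4a3, a basement membrane collagen (0.11), followed by Slfn5 and Adamts5, a matrix protease (0.14 each). The closest were Clec3b for Cdkn1c (0.07), Sox5 for Dlk1 (0.06), Slc9a9 for Peg3 (0.05), Nudt13 for Plagl1 (0.04), Asxl2 for Ndn (0.05) and Ext1 for Grb10 (0.02). These are descriptions over 6 libraries of a large table, in which some gene will always be close.

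**Figure D3:**
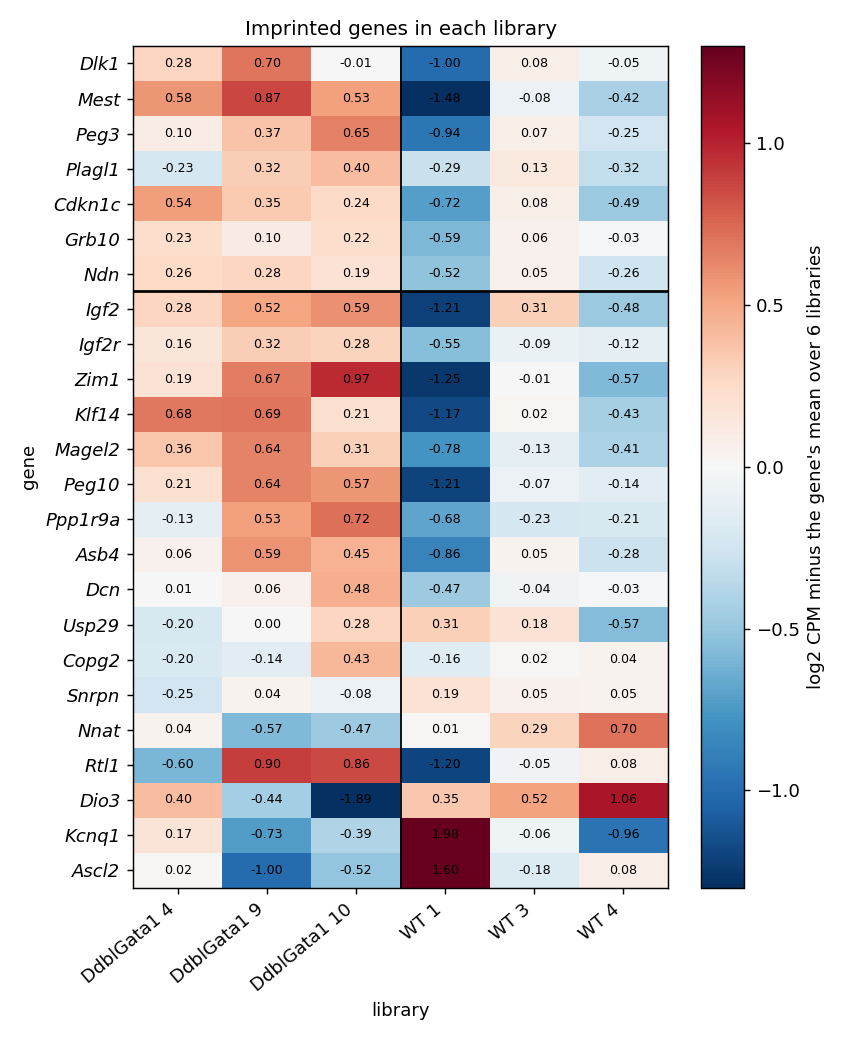
Log2 CPM minus the gene's mean over the 6 libraries for the 7 genes (above the horizontal line) and 17 other imprinted genes named in the text (below it), DdblGata1 libraries left of WT libraries, with colours clipped at the ends of the scale. WT replicate 1 is the lowest library for most genes shown, while in Usp29, Snrpn, Kcnq1 and Ascl2 it is the highest.

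The size of the difference moved with single libraries. In each of the 6 refits by edgeR that left out 1 library, all 7 genes stayed higher by value in DdblGata1 libraries. Their median log2 fold change of 0.61 became 0.32 without WT replicate 1, 0.43 without DdblGata1 replicate 9 and 0.81 without WT replicate 3. It lay between 0.54 and 0.65 without any of the other 3 libraries. The number with an unadjusted p under 0.05 was 2 without WT replicate 1, without WT replicate 4 or without either of DdblGata1 replicates 9 and 10, and 5 without DdblGata1 replicate 4 or WT replicate 3. Over all genes the share with such a p and a higher value moved too, between 2.90% without DdblGata1 replicate 10 and 9.61% without DdblGata1 replicate 4.

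**Figure D4:**
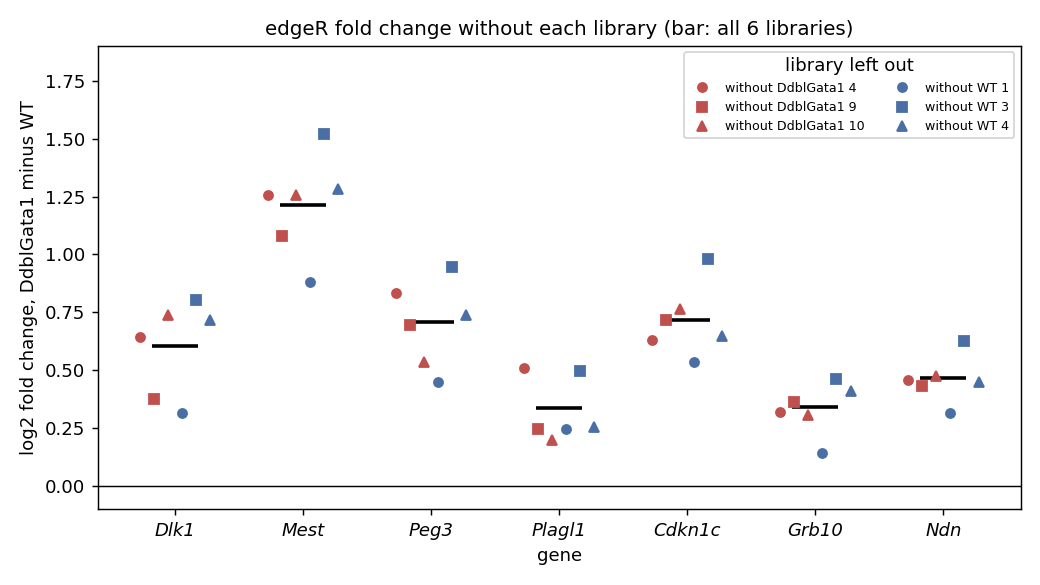
Log2 fold change by edgeR, DdblGata1 minus WT, of the 7 genes with all 6 libraries (black bars) and without each library in turn (points, red where a DdblGata1 and blue where a WT library was left out). All points lie above 0, and the refit without WT replicate 1 (blue circles) gives the lowest value for every gene but Plagl1, where the refit without DdblGata1 replicate 10 does.

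Markers of other cells were read beside these values. None of them passed the adjusted edgeR test, which called 0 genes of the whole table. By DESeq2 the smooth muscle marker Des had the smallest unadjusted p of them, at 0.000311 (log2 fold change -0.78). That p is below the 0.000382 of Zim1, which DESeq2 called. Adjustment keeps the order of the p-values, so Des passed the adjusted DESeq2 test too, as a lower gene. Smooth muscle markers summed to 5413, 8264 and 6669 CPM in DdblGata1 replicates 4, 9 and 10, against 12028, 12238 and 7758 CPM in WT replicates 1, 3 and 4. Of these 6 markers 0 were higher by value and 3 were lower at an unadjusted edgeR p under 0.05, with a median log2 fold change of -0.70, and the sums overlapped, since DdblGata1 replicate 9 lay above WT replicate 4. Pericyte markers summed to 1370, 1471 and 1394 CPM in DdblGata1 libraries, against 2326, 1945 and 1771 CPM in WT libraries. Of these 5 markers 1 was higher by value and 4 were lower at that p, again beside 4.23% of all genes, with a median of -0.58. Of the 7 fibroblast markers 5 were higher by value, with a median of 0.17. Their sums overlapped, at 105681 to 146323 CPM in DdblGata1 and 107466 to 152764 CPM in WT libraries. The leukocyte sums were 18.0 to 36.9 CPM in DdblGata1 and 25.5 to 82.2 CPM in WT libraries, and the endothelial sums were 15.9 to 26.3 and 20.4 to 26.9 CPM. Of 3 measured leukocyte markers 0 were higher by value, and 1, Lyz2, was lower at that p, beside 4.23% of all genes. Higher by value were 0 of 3 markers of interstitial cells of Cajal, 1 of 5 of enteric glia, 3 of 5 of enteric neurons and 4 of 5 of mesothelium. None of the markers in these last lists had an unadjusted edgeR p under 0.05. The part of these cell types in the values of the imprinted genes was not tested, while the values without WT replicate 1, the library with the most epithelial RNA, stand above.

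Other imprinted genes were found on both sides. Of 63 further imprinted genes on a list drawn up for this comparison, 46 were in the table: 27 were higher and 19 lower by value, and their median log2 fold change was 0.03, against 0.61 for the 7 genes and -0.01 for all genes. At an unadjusted edgeR p under 0.05, 7 were higher and 1 lower, where 6.03% of all genes were higher and 4.23% lower. None passed when adjusted over all genes, a test that called 0 genes of the whole table. In 8 every DdblGata1 library was above every WT library and in 1 below, where 8.98% and 7.34% of all genes were so. In the domains of the 9 genes, 20 others were measured, of which 11 were higher and 9 lower by value with a median of 0.01. Of 19 others listed for the paternal copy 13 were higher and 6 lower, and of 24 listed for the maternal copy 12 were higher and 12 lower. The copy is that of the list, and whether these genes are imprinted in intestinal fibroblasts was not tested. Without WT replicate 1, 26 of the 46 were higher and 20 lower, 4 and 1 of them at an unadjusted p under 0.05. Of all genes, 7.87% had such a p without that library, with 4.34% higher.

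Several of the others differed by a similar size. Igf2, the growth factor of the domain that holds H19, had 2963, 3486 and 3678 CPM in DdblGata1 replicates 4, 9 and 10, against 1052, 3016 and 1747 CPM in WT replicates 1, 3 and 4. WT replicate 3 lay above DdblGata1 replicate 4, so the groups overlapped, and the log2 fold change was 0.80 ± 0.35 (SE; edgeR p 0.0525). WT replicate 1 was far below the other WT libraries, and without it the log2 fold change was 0.48 (edgeR p 0.116). Igf2r, the maternally expressed receptor that clears Igf2, had 386, 432 and 422 CPM in DdblGata1 libraries, against 236, 325 and 319 CPM in WT libraries (0.49 ± 0.17, edgeR p 0.0196; 0.33 without WT replicate 1). In the domain of Mest, the maternal transcription factor gene Klf14 had 15.9, 16.1 and 11.5 CPM in DdblGata1 libraries, against 4.36, 10.1 and 7.36 CPM in WT libraries. Klf14 was separate between the groups, at 0.997 ± 0.32 on the log2 scale (edgeR p 0.0143; 0.71 without WT replicate 1). Copg2, a coat protein gene whose end overlaps 912 bases of Mest on the other strand, averaged 45.5 ± 11.6 CPM in DdblGata1 and 42.7 ± 3.23 CPM in WT libraries, a log2 fold change of 0.09 that turned negative without DdblGata1 replicate 10.

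The Peg10 domain, which holds none of the 9 genes, had 6 of 7 measured genes higher by value. Peg10 itself, a retrotransposon-derived paternal gene needed for the placenta, had 61.9, 83.4 and 79.4 CPM in DdblGata1 replicates 4, 9 and 10, against 23.1, 50.8 and 48.6 CPM in WT replicates 1, 3 and 4. Its log2 fold change was 0.88 ± 0.29 (SE; edgeR p 0.0167), and it was 0.57 without WT replicate 1. Ppp1r9a, which encodes the actin-binding protein neurabin, had 0.77 ± 0.24 (p 0.0124) and Asb4, a subunit of a ubiquitin ligase, had 0.71 ± 0.30 (p 0.0439), and both were separate between the groups. These values were 0.61 and 0.47 without WT replicate 1. On the lower side, Nnat, a membrane protein gene of the nervous system and endocrine cells, averaged 19.1 ± 4.61 CPM in DdblGata1 and 30.4 ± 7.45 CPM in WT libraries (-0.67 ± 0.25, edgeR p 0.0252), and its groups overlapped. Dcn, the matrix proteoglycan decorin that is imprinted in mouse placenta, averaged 6916 ± 1284 CPM in DdblGata1 and 5376 ± 894 CPM in WT libraries (0.36 ± 0.23, edgeR p 0.145; 0.21 without WT replicate 1).

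**Figure D5:**
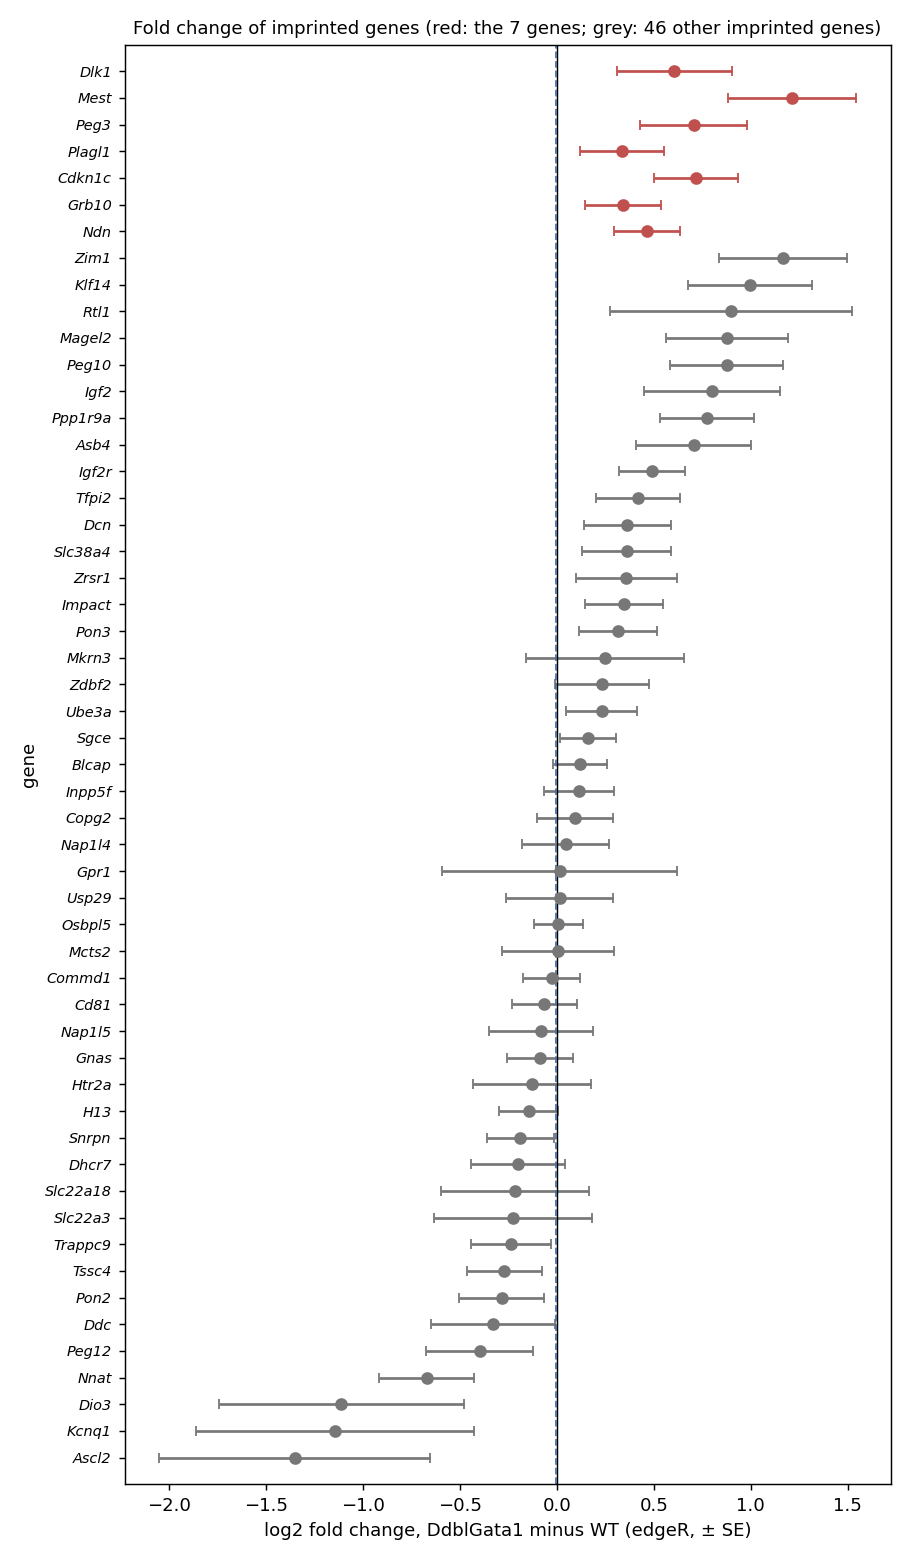
Log2 fold change by edgeR, DdblGata1 minus WT, with SE (n = 3 libraries each) of the 7 genes in red and of all 46 measured other imprinted genes in grey, sorted by value. The dashed line is the median of all 15238 genes at -0.01, and the grey genes lie on both sides of it, from -1.35 in Ascl2 to 1.17 in Zim1.

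Genes that keep imprints or otherwise act on DNA methylation were also read. The list includes the Tet enzymes, which oxidise methylated cytosine and are not counted here as keepers of imprints. Of 14 listed, 13 were measured, 9 higher and 4 lower by value, and 2 had an unadjusted edgeR p under 0.05, where 10.3% of all genes had one. By this edgeR count, 2 in 13 is near that share. In 4 of the 13 every DdblGata1 library was above every WT library and in 0 below, where 8.98% and 7.34% of all genes were so. DESeq2 called 2 of the 13 higher and 0 lower, where it called 0.998% of the genes it tested higher. Zfp445, a zinc finger protein that protects imprints together with ZFP57, averaged 162 ± 40.5 CPM in DdblGata1 and 78.5 ± 19.6 CPM in WT libraries (SD, n = 3 each), a log2 fold change of 1.04 ± 0.24 (SE; edgeR p 0.00261). DESeq2 called it higher with an adjusted p of 0.0154. Tet2, an enzyme that oxidises methylated cytosine, averaged 56.7 ± 8.76 CPM in DdblGata1 and 34.4 ± 4.52 CPM in WT libraries (0.72 ± 0.17, edgeR p 0.00314; DESeq2 adjusted p 0.0396). Neither was called by DESeq2 without DdblGata1 replicate 9 (adjusted p 0.112 for Zfp445 and 0.214 for Tet2), DdblGata1 replicate 10 (0.250 and 0.331) or WT replicate 1 (0.0865 and 0.156). Zfp445 was also not called without WT replicate 4 (0.0858), nor Tet2 without WT replicate 3 (0.204). Zfp57 itself averaged 13.2 ± 2.51 CPM in DdblGata1 and 9.20 ± 1.39 CPM in WT libraries (0.52 ± 0.23, edgeR p 0.0537).

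A list of relatives and partners of some of these genes was read in the same way. It holds relatives of Cdkn1c and Grb10 as well as receptors and signalling genes tied to Grb10 and Dlk1. Of 13 listed and measured, 10 were higher and 3 lower by value, and 2 had an unadjusted edgeR p under 0.05, again near the 10.3% of all genes. Without single libraries that count ran from 0 to 4. It was 0 without DdblGata1 replicate 9 or 10 or WT replicate 1 or 4, and 4 without DdblGata1 replicate 4 or WT replicate 3. The share of all genes with such a p moved as well, to 17.8% without DdblGata1 replicate 4 and 9.21% without WT replicate 3. Where the count was 0, that share was 5.37% to 9.42%. Insr, the insulin receptor that Grb10 binds, averaged 73.6 ± 10.1 CPM in DdblGata1 and 53.2 ± 8.19 CPM in WT libraries (log2 fold change 0.47 ± 0.17, edgeR p 0.0261). Irs1, which carries the receptor's signal onward, averaged 62.9 ± 5.89 CPM in DdblGata1 and 47.7 ± 7.35 CPM in WT libraries (0.40 ± 0.16, edgeR p 0.0406). Its relative Irs2 averaged 78.5 ± 9.28 CPM in DdblGata1 and 60.2 ± 10.9 CPM in WT libraries (0.38 ± 0.18, edgeR p 0.0612). The log2 fold changes of Insr, Irs1 and Irs2 were 0.37, 0.25 and 0.24 without WT replicate 1. None of these 3 was called by edgeR or DESeq2 when adjusted over all genes.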

How the data were processed

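Tools listed in the submitters' processing notes are kallisto, DESeq2, R 4.2.2 and bcl2fastq 2.2, and the listed builds are GRCm38.p6 and mm10. The steps these tools were used for, and any use of strand in counting, are not given in the sources used here. Per the labels' protocols, a stranded kit was used on 100 ng of RNA. The authors deposited a gene table of estimated counts, that is expected counts rounded to whole numbers, and every gene in it has at least 10 in at least 3 libraries. TPM summed per gene, multiplied by mean transcript length and brought to the library total, gave the same value within 1% plus 1 count for 99.7% of entries, so the table was taken to be length-scaled without scaling across libraries. The authors' transcript files, from kallisto, hold expected counts, TPM and, as other values, effective lengths of 115270 transcripts, and GENCODE M21 assigned 113492 of these to genes. The sample sheet the authors deposited holds 2 surrogate variables per library, a score of no stated method, and a size factor, a ratio.

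All tests ran over the whole table with edgeR 4.0.16 in R 4.3.3 (TMM, filterByExpr, robust quasi-likelihood fits without covariates, Benjamini-Hochberg adjustment at 0.05), and fold changes are DdblGata1 minus WT. CPM are TMM-scaled, and log2 CPM used a prior count of 2. Transcript usage was tested with diffSpliceDGE of edgeR and Simes adjustment. Alternatives were DESeq2 1.42.0, voom and, on log2(TPM + 1), trend fits of limma 3.58.1, other scalings, a filter at a mean of 10 counts, unscaled transcript sums, the surrogate variables, and leaving out each library. DESeq2 without each library and DESeq2 with the surrogate variables were additions made once the data had been seen. The tests were checked on simulated data. The members and gene lists were chosen with earlier results of these data known. The genes named are all measured members, other imprinted genes in a member's domain or among the 8 with the smallest p elsewhere, the 3 with the smallest p in the other lists, and up to 3 of the closest profiles per member.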

Additional observations from a re-analysis of the deposited data

How the results depend on the processing

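No paired analysis was possible because the groups share only the replicate number 4. All 7 imprinted genes were higher by value in DdblGata1 libraries under every alternative run. edgeR called 0 genes with all 6 libraries (1564 at an unadjusted p under 0.05) and 0 to 1 without single libraries, where 818 to 2715 genes, 2 to 5 of the 7 and 2 to 11 other imprinted genes (higher) had such a p. DESeq2 called 216 genes, 1 of the 7 (Mest) and 1 other imprinted gene (Zim1), and with the surrogate variables 448 genes, 3 of the 7 (Mest, Cdkn1c and Peg3) and 2 others. DESeq2 without single libraries called 1023, 81 and 43 genes without DdblGata1 replicates 4, 9 and 10 and 107, 242 and 140 without WT replicates 1, 3 and 4, with 0 to 2 of the 7 and 0 to 3 others, with 999 to 3060 genes and 4 to 12 higher other imprinted genes at an unadjusted p under 0.05. The other edgeR scalings, filters and covariates and both limma fits called 0 genes, and no setting called a change in transcript usage of the 7. The cause of these differences was not tested. The log2 fold change of Usp29 was -0.042 by upper-quartile scaling and -0.040 by edgeR and -0.050 by DESeq2 with the surrogate variables, and without single libraries it ran from -0.21 to 0.16 by edgeR (-0.14 without DdblGata1 replicate 10, -0.21 without WT replicate 4) with -0.13 and -0.21 by DESeq2 for these libraries. That of Copg2 was -0.10 by edgeR and -0.11 by DESeq2 with the surrogate variables, and -0.15 by both without DdblGata1 replicate 10, in an edgeR range of -0.15 to 0.21 without single libraries. No scaling moved the median of all genes by 0.1 on the log2 scale. Kcnq1 ran from -1.59 to 0.15 by edgeR without single libraries, with 0.16 by DESeq2 without WT replicate 1. The low levels of Rtl1, Dio3, Kcnq1 and Ascl2 limit their values.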
